A study of Caenorhabditis elegans with 6 samples.

Results

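The genes described here code for the cytosolic translation elongation factors and the stalk of the large ribosomal subunit of *C. elegans*. They were taken by gene ID from the read count and FPKM files, and all 9 of the 9 named genes were found among the 46661 genes listed. They are *eef-1A.1* (F31E3.5), *eef-1A.2* (R03G5.1), *eef-1B.1* (F54H12.6), *eef-1B.2* (Y41E3.10), *eef-1G* (F17C11.9), *eef-2* (F25H5.4), *rla-0* (F25H2.10), *rla-1* (Y37E3.7) and *rla-2* (Y62E10A.1). All 9 passed edgeR's filter on low counts, which kept 15432 genes.

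The study asked how loss of the folate receptor FOLR-1 affects gene expression. Poly(A) RNA was sequenced from whole L4 larvae of N2, the wild-type strain, and of *folr-1(syb4116)*, a strain with a CRISPR/Cas9-made premature stop codon in *folr-1*, outcrossed to N2. Both strains were hatched as synchronized L1 larvae and grown at 20 °C on HT115 bacteria that carry the empty RNAi vector, and 3 biological replicates of each were sequenced. The mutant is a single allele, and RNA from all tissues was pooled.

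During elongation, eEF1A in its GTP-bound form brings aminoacyl-tRNAs to the ribosome, and the eEF1B complex recharges it by exchanging GDP for GTP. eEF2 then uses GTP to move the mRNA and tRNAs by a codon. The stalk, built from the protein P0 and dimers of the acidic proteins P1 and P2, is where these GTPases dock on the large subunit and are activated. Transcripts of these proteins are among the most abundant in growing animals.

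The libraries held between 21646678 and 25946226 counts and the TMM scaling factors lay between 0.986 and 1.01. The mutated gene followed the labels, since *folr-1* (C17G1.1) had 32, 37 and 59 counts in N2 and 14, 11 and 7 in the mutant, with a log2 fold change of -2.02 (adjusted p = 4.99e-04 in edgeR, by quasi-likelihood and Benjamini-Hochberg). All 26 markers of 8 tissue classes checked, from intestine to germline, passed the filter. Libraries of the same strain differed by more than counting noise, and each was used as a replicate. The labels call them biological replicates without saying how they were separated, so p-values measure the spread between these libraries. In edgeR's test the spread of each gene is moderated with that of the other tested genes.

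The genes are spread over the genome. In the WBcel235 annotation *eef-1A.1* lies on chromosome III from 6970026 to 6971712, *eef-1B.1* on chromosome III from 7972382 to 7973386, *eef-1B.2* on chromosome IV from 15037331 to 15039551 and *rla-2* on chromosome IV from 13369425 to 13370285. Chromosome V holds *eef-1G* from 10965719 to 10967922, and chromosome X holds *eef-1A.2* from 7823654 to 7825769. The other 3 genes are on chromosome I, *rla-1* from 2069086 to 2069575, *eef-2* from 9163531 to 9166952 and *rla-0* from 10567894 to 10569017. Other annotated genes overlap *eef-1A.1*, *eef-1B.1*, *eef-1G* and *rla-1*. None of these had more than 25 counts in any library, the highest being *arl-13* (Y37E3.5), which overlaps the exons of *rla-1* on the opposite strand by 13 bp. Whether counting used strand is not given in the sources used here, and without it reads of such overlaps cannot be told apart.

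Per length, the genes differed widely in mRNA level. In FPKM, which scale counts by gene length and library size, *eef-1A.1* stood at 6134 ± 96.8 (SD, n = 3) in N2 and ranked 1 of the 15432 tested genes by its mean over the libraries. *rla-0* ranked 11 and *rla-1* 12, with FPKM of 2993 ± 44.1 and 3194 ± 113 (SD, n = 3) in N2. The lowest was *eef-1B.2*, at 245 ± 8.64 FPKM (SD, n = 3) in N2 and rank 486, and *eef-1A.2* was next at 558 ± 5.01 (SD, n = 3) and rank 239. In N2 the share of all counts held by the 9 genes together was 2.46% ± 0.0270 (SD, n = 3).

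The order of the genes by FPKM was the same in all 6 libraries at most steps. An exception was *rla-0* and *rla-1*, where *rla-1* was the higher in 3 of 3 N2 libraries and *rla-0* in 3 of 3 mutant libraries. This depended on the length used, since with CPM divided by the annotated exon lengths of 441 bases for *rla-1* and 1033 for *rla-0*, a choice made after seeing the data, *rla-1* was the higher in 6 of 6 libraries. The neighbours *eef-1G*, *rla-2* and *eef-1B.1* were close together, and each step between them held in 5 of 6 libraries. These neighbours cannot be ordered firmly, while *eef-1A.1* was above both *rla-0* and *rla-1*, these were both above *eef-2*, and *eef-2* was above *eef-1G* in every library.

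**Figure D1:**
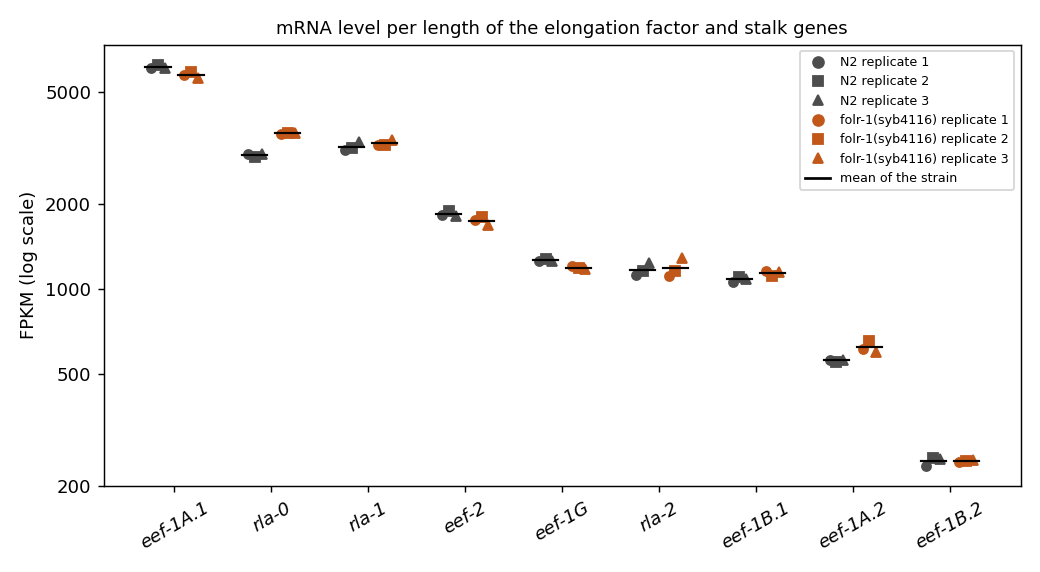
FPKM (log axis) of each gene in the 6 libraries, with N2 in grey, *folr-1(syb4116)* in orange, a symbol for each replicate and a black line at the mean of the strain. *eef-1A.1* sits highest in every library, and *rla-0* and *rla-1* change places between the strains, which they did not with annotated exon lengths.

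Between the strains, *rla-0*, which codes for the stalk base P0, and *eef-1A.2*, the less abundant eEF1A gene, were higher in *folr-1(syb4116)* animals, by 19.2% and 11.3%. No gene was called lower. The more abundant eEF1A gene *eef-1A.1*, *eef-1G* and *eef-2* had fold changes of the opposite sign, between -5.27% and -6.48%, that did not pass the test. Of the 9 genes 2 were called higher, where 3.64% of all tested genes were, and 0 were called lower, where 3.32% were (adjusted p under 0.05 in edgeR's quasi-likelihood test). At an unadjusted p under 0.05 the numbers were 2 higher, where 10.3% of all tested genes were, and 3 lower, where 9.91% were. DESeq2 also called 0 lower, and limma-voom called 1. By library values, 6 of the 9 genes had no overlap between N2 and mutant, 3 in each direction, and 25.1% of all tested genes had none. The median log2 fold change of the 9 genes was 0.020, and that of all tested genes was 0.003.

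**Figure D2:**
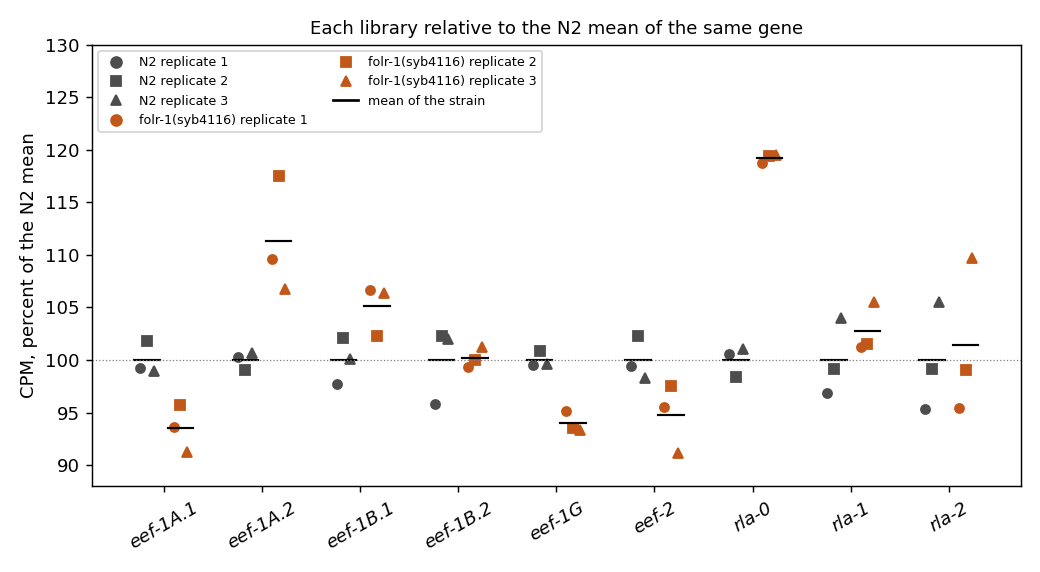
CPM of each library as percent of the N2 mean of the same gene, with N2 in grey, *folr-1(syb4116)* in orange, a symbol for each replicate and a black line at the mean of the strain. The mutant libraries of *rla-0*, *eef-1A.2* and, by a narrow margin, *eef-1B.1* lie above all N2 libraries, and those of *eef-1A.1*, *eef-1G* and *eef-2* lie below.

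The stalk gene *rla-0* had 3131, 3061 and 3147 CPM (counts divided by the TMM-scaled library size) in N2 replicates 1 to 3 and 3695, 3717 and 3720 CPM in the mutant. All mutant libraries lay above all N2 libraries, and the gap between the strains was many times the spread within them. The fit gave a log2 fold change of 0.25 (standard error 0.030, adjusted p = 4.00e-05, edgeR's quasi-likelihood test), with a 95% interval of 14.0% to 24.6%. With 68181 or more counts in each library, counting error was at most 0.383% of a value, reached in an N2 library and smaller in the mutant libraries. The coefficient of variation of the mutant libraries was 0.373%. *rla-0* was called at the same threshold under all 19 alternatives, with log2 fold changes from 0.23 to 0.26.

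The genes of the acidic proteins that bind P0 did not follow it past the test. *rla-1*, for P1, had 1546, 1581 and 1660 CPM in N2 and 1616, 1620 and 1684 CPM in the mutant. The strains overlapped, and the log2 fold change of 0.04 (adjusted p = 0.599, edgeR) had a 95% interval from -2.51% to 8.34%. *rla-2*, for P2, had 515, 535 and 569 CPM in N2 and 515, 535 and 592 CPM in the mutant. Its libraries nearly coincided between the strains, with replicate 3 the highest in each, and the log2 fold change was 0.02 (adjusted p = 0.876, edgeR) with a 95% interval from -5.76% to 9.03%. Neither interval reaches the lower bound of the *rla-0* interval. The direction of *rla-2* turned with the scaling and with single libraries left out.

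Ratios of counts inside a library need no scaling between libraries, and 7 were compared. The count of *rla-1* per count of *rla-0* was 0.494, 0.516 and 0.527 in N2 and 0.437, 0.436 and 0.453 in the mutant, a log2 difference of -0.21. For *rla-2* per *rla-0* it was 0.164, 0.175 and 0.181 in N2 and 0.139, 0.144 and 0.159 in the mutant, a difference of -0.23. Both ratios were lower in all mutant libraries than in all N2 libraries (exact permutation test, two-sided, p = 0.1 and 0.14 adjusted over the 7 ratios, where 0.1 is the least that 3 against 3 can give). Between the acidic proteins themselves, the ratio of *rla-1* to *rla-2* overlapped between the strains (in FPKM 2.73 ± 0.0406 in N2 and 2.77 ± 0.137 in the mutant, SD, exact p = 0.6). Per length, *rla-1* and *rla-2* together made 1.46 ± 0.0546 FPKM for each FPKM of *rla-0* in N2 and 1.25 ± 0.0421 in the mutant (SD, n = 3), and the annotated exon lengths gave 1.60 ± 0.0594 and 1.37 ± 0.0449 (SD, n = 3).

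**Figure D3:**
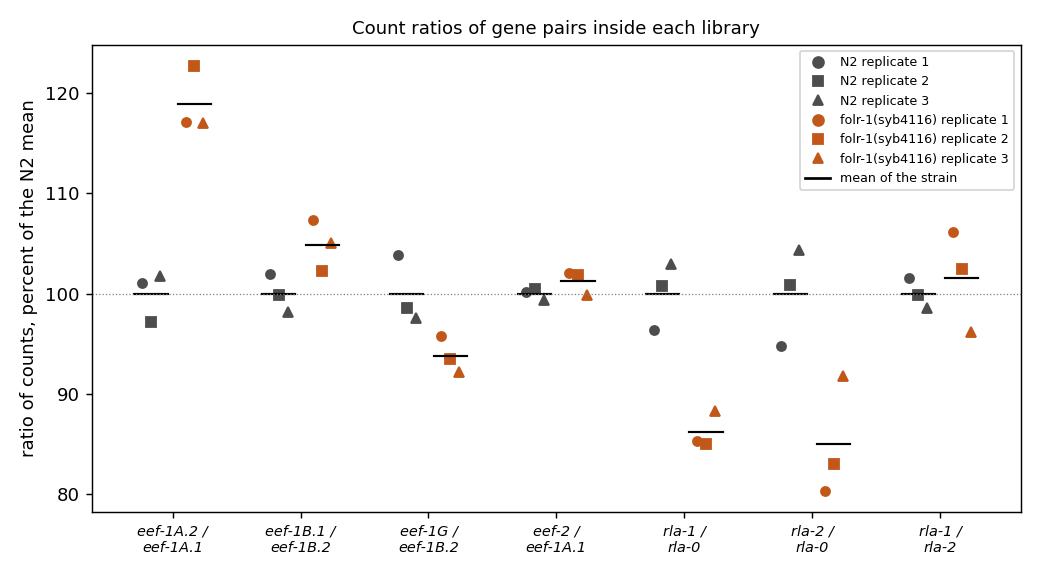
Ratios of counts of gene pairs inside each library, as percent of the N2 mean of the ratio, with N2 in grey, *folr-1(syb4116)* in orange, a symbol for each replicate and a black line at the mean of the strain. The mutant libraries sit apart from N2 for all pairs but *eef-2* over *eef-1A.1* and *rla-1* over *rla-2*, which overlap.

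Of the eEF1A genes, *eef-1A.2* rose and *eef-1A.1* did not pass the test. *eef-1A.1* had 9499, 9748 and 9470 CPM in N2 and 8959, 9164 and 8732 CPM in the mutant. Every mutant library was below every N2 library, but the log2 fold change of -0.10 (standard error 0.030, adjusted p = 0.0641, edgeR) did not pass the threshold. Its 95% interval ran from -10.5% to -2.29%. *eef-1A.2* had 1077, 1063 and 1081 CPM in N2 and 1177, 1261 and 1146 CPM in the mutant. Here every mutant library was above N2, replicate 2 by the most, and the fitted log2 fold change of *eef-1A.2* was 0.15 (standard error 0.038, adjusted p = 0.0200, edgeR) with a 95% interval of 5.23% to 17.7%.

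The call of *eef-1A.2* was lost without N2 replicate 2 (adjusted p = 0.0914, log2 fold change 0.15), without *folr-1(syb4116)* replicate 2 (adjusted p = 0.0931, log2 fold change 0.11), with library totals as the only scaling (log2 fold change 0.13) and with limma on FPKM (log2 fold change 0.15). That of *eef-1A.1* was gained without *folr-1(syb4116)* replicate 2 (adjusted p = 0.0482) and in 5 other alternatives, all edgeR or limma fits.

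Set against each other in the same library, the count of *eef-1A.2* per count of *eef-1A.1* was 0.113, 0.109 and 0.114 in N2 and 0.131, 0.138 and 0.131 in the mutant. The ratio was higher in every mutant library, with a log2 difference of 0.25 (exact permutation test, p = 0.1, adjusted 0.14), and leaving out any 1 library gave 0.23 to 0.26. In FPKM, *eef-1A.2* made up 8.34% ± 0.188 of the eEF1A mRNA in N2 and 9.76% ± 0.241 in the mutant (SD, n = 3). Summed over both genes, eEF1A mRNA was 10551 to 10811 CPM in N2 and 9878 to 10425 CPM in the mutant, with no overlap. Reads that align to both genes could be dropped or assigned to either, and how they were counted is not given in the sources used here.

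*eef-1A.2* is the only gene of the 9 on chromosome X, 2.09 Mb from the edited *folr-1*. Of the 2141 tested genes on this chromosome 131 were called higher and 45 lower, with a median log2 fold change of 0.047. The share called higher was 6.12%, where 3.64% of all tested genes were. Of all tested genes 3.32% were called lower, and their median log2 fold change was 0.003. The part of the chromosome in the change of *eef-1A.2* was not tested.

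The subunits of eEF1B, the exchange factor of eEF1A, did not share a direction. *eef-1G*, for the gamma subunit, had 1851, 1875 and 1851 CPM in N2 and 1769, 1739 and 1736 CPM in the mutant. The mutant libraries were all lower, with little spread in either strain, but the log2 fold change of -0.09 (standard error 0.031, adjusted p = 0.109, edgeR) did not pass the test. *eef-1B.1*, which codes for an exchange subunit, had 892, 932 and 914 CPM in N2 and 973, 934 and 971 CPM in the mutant. The mutant was above N2 in every library, by a narrow margin for mutant replicate 2, and the log2 fold change was 0.07 (adjusted p = 0.261, edgeR). *eef-1B.2*, for another exchange subunit, had 488, 521 and 519 CPM in N2 and 506, 510 and 516 CPM in the mutant. The mutant libraries lay inside the range of N2, and the 95% interval of the change was -5.14% to 5.75%.

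Inside a library, *eef-1G* per *eef-1B.2* was 3.65 ± 0.123 in N2 and 3.43 ± 0.0656 in the mutant, and *eef-1B.1* per *eef-1B.2* was 1.79 ± 0.0344 and 1.88 ± 0.0458 (SD, n = 3, exact permutation test, p = 0.1 for each, adjusted 0.14). Neither ratio overlapped between the strains. Summed over the 3 genes, eEF1B mRNA was 3281 ± 48.9 CPM in N2 and 3217 ± 32.7 CPM in the mutant (SD, n = 3), with overlapping libraries.

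The translocase gene *eef-2* had 5181, 5330 and 5125 CPM in N2 and 4980, 5081 and 4750 CPM in the mutant. The mutant libraries were all lower, replicate 3 by the most, and the log2 fold change of -0.08 (standard error 0.033, adjusted p = 0.189, edgeR) did not pass the test. *eef-2* kept pace with *eef-1A.1*: its count per count of *eef-1A.1* was 0.544 ± 0.00294 in N2 and 0.551 ± 0.00649 in the mutant (SD, n = 3), which overlapped (exact p = 0.3, log2 difference 0.02). The same pair deviated together from the strain means over the 6 libraries (Pearson r = 0.98), as did *rla-1* and *rla-2* (r = 0.91). These 2 pairs had the highest r of the 36 pairs of genes, and the values share library and scaling.

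**Figure D4:**
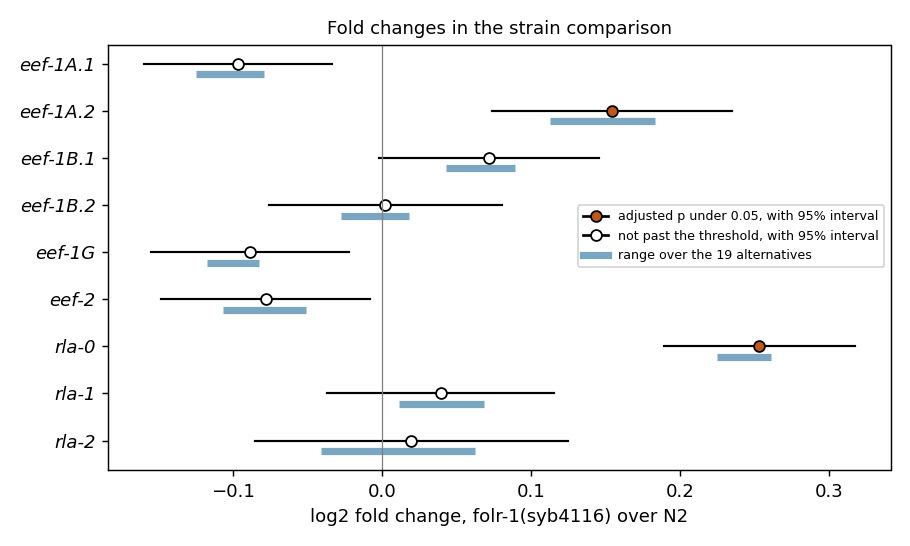
Log2 fold changes of *folr-1(syb4116)* over N2 with 95% intervals from edgeR's quasi-likelihood test, filled where the adjusted p was under 0.05, and below each the range over the 19 alternatives in blue. *rla-0* at 0.25 and *eef-1A.2* at 0.15 are filled, and the ranges of *rla-2* and *eef-1B.2* cross 0.

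Taken by their share of all counts, the elongation factor genes made up 1.93% ± 0.0281 in N2 and 1.81% ± 0.0380 in the mutant (SD, n = 3), while the stalk genes made up 0.530% ± 0.0131 and 0.584% ± 0.0110 (SD, n = 3). Neither share overlapped between the strains, and no test of the shares was made. The shares divide by library totals without TMM factors. With library totals as the only scaling, the median log2 fold change of all tested genes was -0.026, against 0.003 with TMM. In the stalk share *rla-0* was the only gene called, while *rla-1* and *rla-2* overlapped between the strains. In the elongation factor share no gene was called lower with TMM, and the only gene called, *eef-1A.2*, was higher. With library totals, the scaling of the shares, *eef-1A.1* (adjusted p = 0.0131, edgeR) and *eef-1G* (adjusted p = 0.0276, edgeR) were called lower. *eef-1A.2* was not called with that scaling (adjusted p = 0.0538, edgeR). All 9 genes together held 2.39% ± 0.0320 (SD, n = 3) of the counts in the mutant.

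Of the 26 tissue markers 7 were called between the strains, 2 higher and 5 lower, where 3.64% and 3.32% of all tested genes were. Sums over a list are led by its most abundant genes, as by *asp-1* for intestine, which had a log2 fold change of 0.21. The other intestine markers were not called. *ges-1* and *vha-6* had log2 fold changes of 0.06 and 0.01. The least abundant, *elt-2*, had 0.23 (adjusted p = 0.0575, edgeR), with all mutant libraries above all N2 libraries. Summed over each marker list, intestine markers (1 of 4 called higher, *asp-1*) were at 4069 to 4099 CPM in N2 and 4571 to 4728 CPM in the mutant, and body wall muscle markers (1 of 3 called lower, *unc-54*) at 8352 to 8430 and 6634 to 7610 CPM. Germline markers (0 of 3 called) were at 1159 to 1189 and 1097 to 1129 CPM, and pharynx markers (2 of 3 called lower, *myo-2* and *marg-1*) at 364 to 369 and 309 to 332 CPM. Hypodermis markers (1 of 3 called higher, *rol-6*) were at 232 to 294 and 315 to 352 CPM, and sperm markers (2 of 4 called lower, *spe-9* and *fer-1*) at 215 to 222 and 202 to 214 CPM. Neuron markers and oocyte and yolk markers overlapped between the strains, with 0 called. The part of these markers in the changes of *rla-0*, *eef-1A.2* and the other genes was not tested, and in RNA of whole animals fewer cells of a type and less RNA per cell cannot be told apart.

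Other genes of translation were compared from lists matched by gene symbol. The stalk is part of the large subunit. Of the 77 other cytosolic ribosomal protein genes 26 (33.8%) were called higher and 0 lower, with a median log2 fold change of 0.10. Of all tested genes 3.64% were called higher and 3.32% lower. At an unadjusted p under 0.05 there were 43 (55.8%) ribosomal protein genes higher and 1 lower, where 10.3% and 9.91% of all tested genes were. DESeq2 called 1 of the ribosomal protein genes lower. The smallest adjusted p-values among them were those of *rpl-31*, *rpl-18*, *rpl-13* and *rpl-25.1*, with log2 fold changes of 0.42, 0.35, 0.34 and 0.41. The study also measured selected ribosomal genes by quantitative RT-PCR, with primers for these genes but not for *rla-0*. It reported a less clear rise than in RNA-seq, with many genes unchanged. For the ribosomal protein RPS-6 it found no difference between wild type and *folr-1* mutants, in images of L4 larvae or in Western blots of adults. By fold change, *rla-0* would stand below 10 of the 77 and *rla-1* and *rla-2* below 58 and 66, while *eef-1A.2* would stand below 22. *eef-1A.1*, *eef-1G* and *eef-2* would each stand below 75.

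Of 13 other factors of elongation, termination and recycling, 1 (7.69%) was called higher and 1 lower. Of all tested genes 3.64% and 3.32% were. The median log2 fold change of the 13 genes was -0.01. The higher gene was *iff-2*, which codes for eIF5A, a factor that helps ribosomes past slow peptide bonds, at 381 ± 12.5 CPM in N2 and 484 ± 28.4 CPM in the mutant (SD, n = 3, log2 fold change 0.34, adjusted p = 8.55e-05, edgeR). Its paralogue *iff-1*, known for its germline role, had a log2 fold change of -0.04 (adjusted p = 0.546, edgeR). The lower gene was *efk-1*, for the kinase that phosphorylates and inhibits eEF2, at 71.3 ± 0.294 CPM in N2 and 61.1 ± 2.12 CPM in the mutant (SD, n = 3, log2 fold change -0.22, adjusted p = 0.00448, edgeR). Both were called under all 19 alternatives. The termination factor genes *erfa-1* and *erfa-3*, the recycling factor gene *abce-1* and the *dph* genes, which act in making the diphthamide residue of eEF2, did not pass the test.

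Of 35 initiation factor genes 2 (5.71%) were called higher and 0 lower, where 3.64% and 3.32% of all tested genes were. Their median log2 fold change was 0.01. At an unadjusted p under 0.05 there were 4 (11.4%) higher and 0 lower, where 10.3% and 9.91% of all tested genes were. DESeq2 called the same numbers of initiation factor genes as edgeR, 2 and 0. The called genes were *eif-6*, for a factor that keeps the large subunit from joining the small one too early (log2 fold change 0.21, adjusted p = 0.00219, edgeR), and *eif-3.J*, for a subunit of eIF3 (log2 fold change 0.21, adjusted p = 0.00538, edgeR). None of 32 aminoacyl-tRNA synthetase genes, cytosolic and mitochondrial together, and 0 of 4 mitochondrial elongation factor genes were called, with median log2 fold changes of -0.006 and -0.003. At an unadjusted p under 0.05 there were 1 higher and 1 lower synthetase gene and 0 mitochondrial genes, and DESeq2 also called 0 in both lists.

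**Figure D5:**
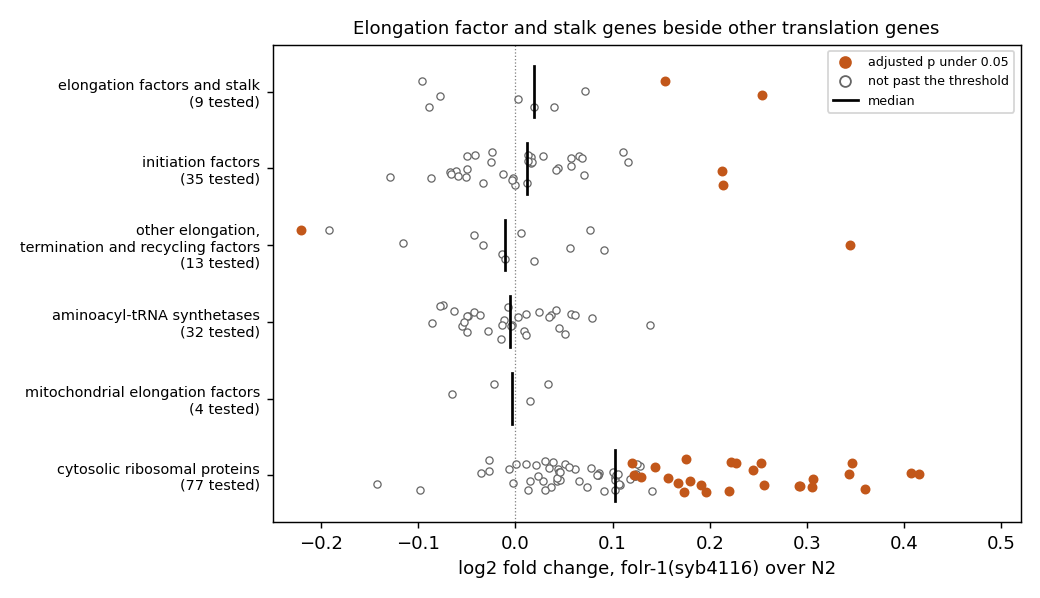
Log2 fold changes of *folr-1(syb4116)* over N2 for the 9 genes and for the lists of other translation genes, with a point for each gene, filled where the adjusted p was under 0.05, and a black line at the median. The ribosomal protein genes lie to the right with a median of 0.10, and the 9 genes spread from -0.10 to 0.25.

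The genes whose levels over the 6 libraries were most like the mean standardised profile of the 9 genes were *ced-10*, *rpt-4*, *qns-1*, *cpi-1* and ZK1055.7, with Pearson r from 0.93 to 0.99 over 6 libraries, among genes with a mean of at least 50 CPM. This profile was lowest in N2 replicate 1 (-0.59) and lay between -0.05 and 0.21 in the other libraries. Since 3 of the 9 genes lay above N2 and 3 below in every mutant library, a difference between the strains largely cancels in this mean, so the profile and the genes nearest to it say nothing about the strains.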

How the data were processed

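RNA-seq libraries of 3 N2 and 3 *folr-1(syb4116)* samples were analysed. Per the labels, the authors used fastp, HISAT2 and featureCounts with WBcel235, and deposited raw read counts per gene. They also deposited FPKM values, the same counts divided by gene length and a library-wide factor, with a count to FPKM ratio between libraries that was the same for every gene. Versions are not given in the sources used here. Whether the libraries were counted by strand is not given either. The libraries held 21646678 to 25946226 counts, and 46180 of the 46661 genes were matched to the annotation.

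The strains were compared with edgeR 4.0.16 under R 4.3.3 (filterByExpr, TMM, then glmQLFit and glmQLFTest on a model of strain alone) and p-values were adjusted over the 15432 tested genes by Benjamini-Hochberg, with a threshold of 0.05. CPM used the TMM-scaled library size. Standard errors of edgeR fold changes were derived as the absolute log2 fold change divided by the square root of the test's F statistic. The 95% intervals are from the fold change, this standard error and the t quantile at the test's degrees of freedom. Ratios of gene pairs were compared with two-sided exact permutation tests in Python 3.11.15. Alternatives used DESeq2 1.42.0, limma 3.58.1, other scaling factors and filters, log2(FPKM + 1) and log2(FPKM + 0.1), a lowess correction (span 0.3) for gene length, a replicate block, a stricter threshold (adjusted p under 0.005 and absolute log2 fold change over 1) and each library left out. The fits were also run on simulated counts with the same dispersion for every gene and no effect of gene length or replicate. These runs could not show whether the length correction or the replicate block removes such an effect.

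Genes named are the 9 genes, *folr-1*, up to 4 called genes of each list and direction with the smallest adjusted p, the 5 genes of most similar profile, and genes that overlap the 9. Other genes were named after their values were seen: *iff-1*, *erfa-1*, *erfa-3*, *abce-1*, *ges-1*, *vha-6*, *elt-2* and called tissue markers. The members and lists were chosen with earlier results of these data known. No sequence was at hand.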

Additional observations from a re-analysis of the deposited data

How the results depend on the processing

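*rla-0* stayed past the 0.05 threshold in every alternative fit. The number of genes higher was 1 in place of 2 with library totals as the only scaling and with limma on log2(FPKM + 1) or log2(FPKM + 0.1), where *eef-1A.2* was lost, and 0 under the stricter threshold, since no fold change of these genes was that large. The number lower was 0, but 1 (*eef-1A.1*) with limma-voom and with length correction and replicate block together, and 2 (*eef-1A.1* and *eef-1G*) with library totals only and with the length correction alone. Left-out libraries gave 1 to 2 genes higher and 0 to 1 lower. With the replicate block 2 genes were higher and 1 was lower (*eef-1A.1*, adjusted p = 0.0471 in edgeR). Same-numbered libraries did not deviate together (r = -0.023, -0.045 and 0.013), so the numbers were not taken as pairs. The causes of these differences were not tested.

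By deposited FPKM *rla-0* was above *rla-1* in 3 libraries, and by annotated exon lengths, an alternative added after seeing the data, in 0. Fold changes near 0 turned sign. *eef-1B.2* (0.002) was -0.0041 with upper quartile factors, -0.026 with library totals and between -0.028 and 0.018 with a library left out (below 0 without N2 replicate 1 or *folr-1(syb4116)* replicate 3). *rla-2* (0.020) was -0.0087 with library totals and between -0.041 and 0.063 with a library left out (below 0 without the same libraries). The log2 ratio of *rla-1* to *rla-2* was between -0.011 and 0.060 with a library left out, and the other 6 ratios kept their sign. The number of ribosomal protein genes lower was 1 in place of 0 with DESeq2, with library totals and with the length correction, and the number higher was 21 to 27. Ratios of FPKM gave the same log2 differences as ratios of counts. Over all tested genes, 561 were higher and 512 lower in edgeR, against 399 and 736 with library totals only, 310 and 268 with limma on log2(FPKM + 1), 309 and 274 on log2(FPKM + 0.1), 894 and 752 with no filter on counts, and 459 and 406 with the replicate block (432 and 342 with the length correction as well). They were 335 and 337 without N2 replicate 2, 363 and 405 without *folr-1(syb4116)* replicate 2, and 372 and 373 without *folr-1(syb4116)* replicate 3.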
